A study of Rattus norvegicus with 9 samples.

Results

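Immune checkpoint receptors and ligands were followed in peripheral blood mononuclear cells (PBMC, the lymphocytes and monocytes of blood) of rats. The 9 genes were taken by symbol from the deposited table of 22077 intact genes: the ligands Cd274 (PD-L1), Pdcd1lg2 (PD-L2), Cd80 and Cd86, and the receptors Pdcd1 (PD-1), Lag3, Havcr2 (TIM-3), Tigit and Btla. All 9 symbols were found, each on 1 line, and 8 passed the filter on low counts, while Pdcd1 had no read in any library. The series concerns the aryl hydrocarbon receptor (AHR) in pulmonary arterial hypertension. Its groups are rats in normoxia at day 0, Sugen-hypoxia (SuHx) rats at day 28 and SuHx rats at day 56, with 3 RNA-seq libraries each. All rats were wild-type Sprague-Dawley animals, and the sources used here give neither their age and sex nor the Sugen dose and hypoxia schedule. In the SuHx model, pulmonary hypertension follows from blocking VEGF receptors together with exposure to low oxygen. Since controls exist at day 0 alone, treatment cannot be told apart from day or age. Whether replicates were separate animals is not stated in the labels, so the p-values reflect sample-to-sample spread that may be technical.

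Checkpoint receptors sit on T cells, B cells and other leukocytes and dampen activation when they bind their ligands. PD-1 recruits phosphatases to the T cell receptor complex when it meets PD-L1 or PD-L2 on antigen-presenting cells. CD80 and CD86 on antigen-presenting cells feed both arms of this control, since they stimulate T cells through CD28 and restrain them through CTLA-4. In blood, the inhibitory receptors mark recently or repeatedly stimulated lymphocytes, while BTLA is already present on resting B cells and T cells.

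Exon reads per library ranged from 22148400 to 39947430. The libraries differed in red cell RNA: the 5 leading globin genes took 43.0% to 56.3% of exon reads in normoxia, 1.42% to 29.0% at day 28 and 40.5% to 44.4% at day 56. Intron reads made up 5.37% to 14.6% of gene reads in normoxia, 14.2% to 24.9% at day 28 and 11.9% to 16.9% at day 56. Levels are given as CPM (exon reads scaled to a common library size, with TMM factors between 0.573 and 1.70), and 3 reads corresponded to 0.0762 to 0.195 CPM. The labelled cell type was checked with lists of markers. The 12 T cell markers summed to between 1272 and 2208 CPM over the 9 libraries, the 8 B cell markers found to between 568 and 1707 CPM, and the 12 monocyte markers to between 1819 and 11459 CPM. Every T cell, B cell and monocyte marker found had reads in all 9 libraries. The 11 neutrophil markers summed to between 49.4 and 292 CPM, and of them Elane was at 0 in 7 libraries and Mpo in 2. The others had reads in all 9 libraries, led by Csf3r with 17018 exon reads. The check therefore does not show neutrophils to be absent. In bulk samples, fewer cells of a type and less RNA per cell cannot be told apart.

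The levels of the members differed widely when set per exon length with the authors' deposited RPKM (reads set against exon length and mapped reads). In normoxia Btla stood first at 28.5 ± 7.46 RPKM (SD, n = 3), with no library in common with the range of the next gene. Lag3 followed at 4.90 ± 2.87 RPKM, Cd86 at 4.41 ± 0.37 RPKM and Cd274 at 4.11 ± 2.37 RPKM (SD, n = 3 each), and the ranges of neighbours in this order overlapped. Pdcd1lg2 at 0.949 ± 0.238 RPKM, Cd80 at 0.836 ± 0.607 RPKM and Tigit at 0.465 ± 0.131 RPKM came next (SD, n = 3 each), again with overlapping neighbours. Havcr2 was the lowest gene with reads. At day 56 the 3 leading genes lay together: Btla averaged 13.7 ± 5.68 RPKM, Lag3 12.6 ± 1.5 RPKM and Cd274 12.3 ± 2.21 RPKM (SD, n = 3 each), with overlapping ranges. At day 28 the same genes led, with Btla at 23.4 ± 4.67 RPKM, Lag3 at 13.0 ± 1.98 RPKM and Cd274 at 12.2 ± 2.55 RPKM (SD, n = 3 each).

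At day 56, 4 of the 8 tested members passed the test against normoxia. Cd274 and Lag3 were higher by 2.72-fold and 2.35-fold, and Cd86 and Btla were lower, at 0.362 and 0.415 of the normoxia level. Among all 12447 genes tested, 7.12% were called in this comparison, 3.42% higher and 3.7% lower (edgeR quasi-likelihood F-test, Benjamini-Hochberg adjusted p below 0.05 over all genes). At day 28, 0 of the 8 members were called, while 0.129% of all genes were called. Of the 8 members, 6 had an unadjusted p under 0.05 at day 28, as did 28.8% of all genes. DESeq2 called 6 members at day 28, beside 13% of all genes it tested. At day 56, 7 members had an unadjusted p under 0.05, as did 30.9% of all genes. Between day 56 and day 28, 0 members were called by edgeR, beside 0.546% of all genes. In that comparison 3 members had an unadjusted p under 0.05, as did 18.5% of all genes. DESeq2 called 1 member there, beside 8.13% of all genes it tested.

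These calls depended on single libraries. The 4 calls at day 56 became 0 without normoxia replicate 2, normoxia replicate 3, day 56 replicate 2 or day 56 replicate 3, and 1 (Btla) without day 56 replicate 1; these 5 fits called 85 to 304 of all genes. Btla also lost its call without day 28 replicate 1 or 2. Without normoxia replicate 1 the fit called 43% of all genes at day 56 and 5 members, Tigit included, and 45.2% of all genes at day 28 and 6 members. Over the 9 fits with 1 library left out, the log2 fold change of each called member kept its sign at day 56. Without scaling factors, which left 1.16% of all genes called at day 56, none of the 4 members was called. DESeq2 called 5 members at day 56, Tigit included, beside 18.4% of all genes.

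The CPM of the groups did not overlap for 5 of the 8 tested members between day 28 and normoxia, which held for 23.2% of all genes tested. They did not overlap for 6 members between day 56 and normoxia, against 30.4% of all genes. Between the SuHx days the share of all genes without overlap was not counted. Where a member's SuHx days are said below not to overlap, this is a description and not a trait particular to it. The median log2 fold change of the 8 tested members was 0.55 at day 28 and 0.47 at day 56, beside medians over all genes of -0.01 and -0.04. The members' fold changes had both signs, so these medians describe no common shift. Both days were compared with the same 3 normoxia libraries.

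**Figure D1:**
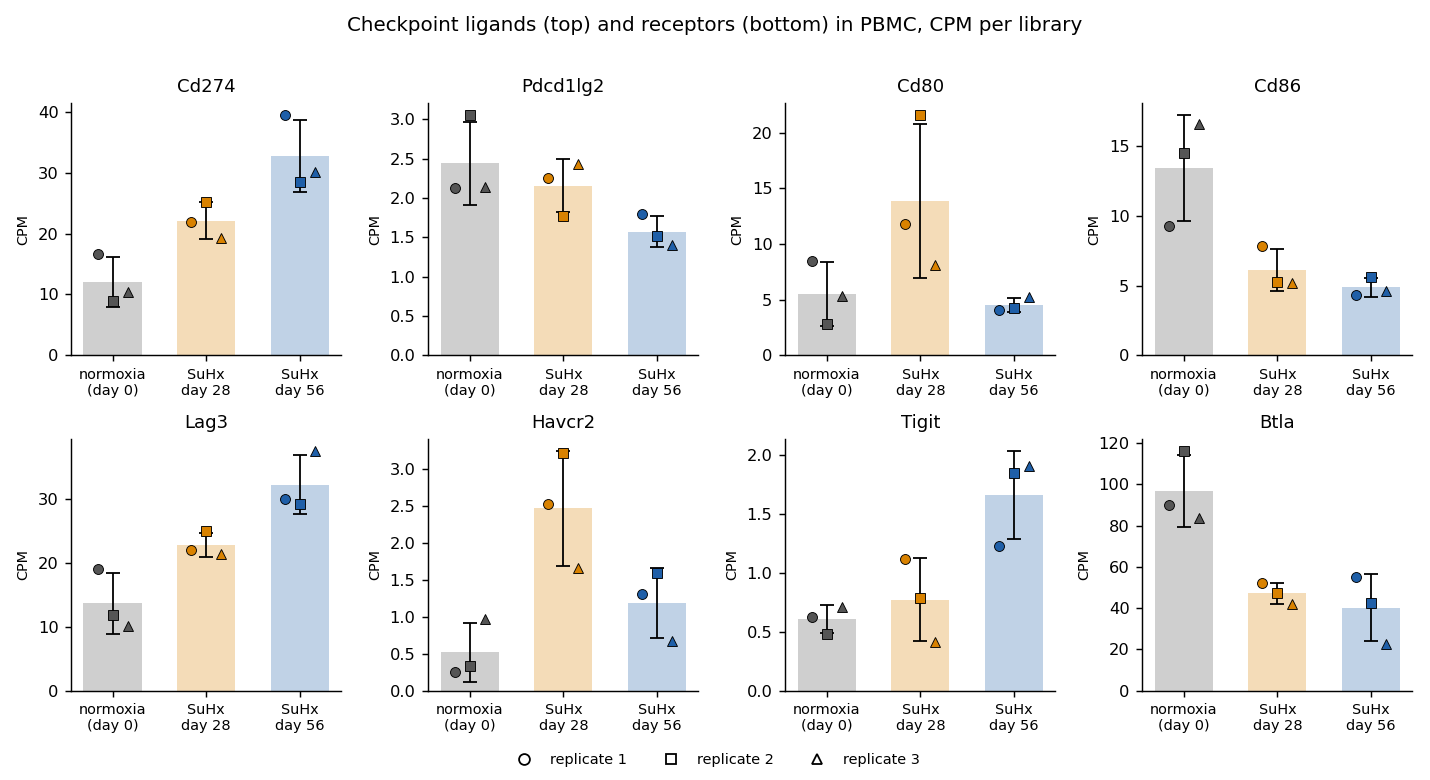
CPM (y axis) of the 8 members with reads in normoxia (day 0), SuHx day 28 and SuHx day 56; points are libraries, with a shape per replicate number, and bars and whiskers are the mean ± SD of 3 libraries. Cd274 and Lag3 stood higher at each later day (without scaling factors the step between the SuHx days turned round), Btla and Cd86 lay lower at both SuHx days than in normoxia, and Cd80 was highest at day 28.

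**Figure D2:**
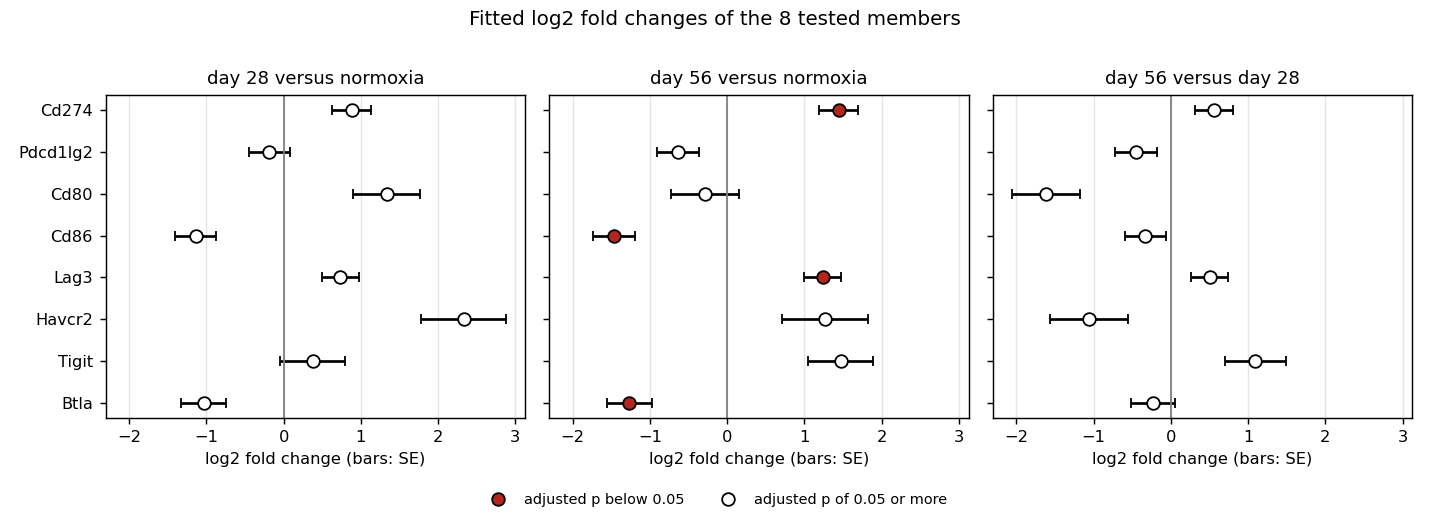
Fitted log2 fold changes with their SE (x axis) of the 8 tested members (y axis) in the 3 comparisons. Filled points passed the test at an adjusted p below 0.05: Cd274, Cd86, Lag3 and Btla between day 56 and normoxia.

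Among the ligands, Cd274 encodes PD-L1, the more broadly expressed ligand of PD-1. It lies on chromosome 1 of rn6 at chr1:247519938-247537943 (ENSRNOG00000016112). Its start region is shown because Cd274 was called and AHR is the subject of the series. RefSeq gives the following 250 bases before its start on GRCr8, chr1:236529982-236530231, plus strand; capitals mark the only match of the 5 motifs searched, a GCGTG 72 bases before the start:
Cd274: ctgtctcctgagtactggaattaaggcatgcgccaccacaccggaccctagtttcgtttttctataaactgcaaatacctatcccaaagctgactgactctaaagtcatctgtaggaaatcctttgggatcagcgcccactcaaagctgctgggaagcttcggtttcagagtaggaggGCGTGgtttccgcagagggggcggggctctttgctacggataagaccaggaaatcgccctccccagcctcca
The motifs were TTCNNNGAA (the GAS element bound by STAT factors), TGANTCA (AP-1), TGACGTCA (CRE), GCGTG (the core of the AHR site) and ACGTG (the core of the HIF site), on both strands. GCGTG occurred in 25.9% of the 33469 promoters of the RefSeq table over the same length, so its presence is common. TTCNNNGAA occurred in 7.67%, TGANTCA in 6.34%, TGACGTCA in 1.59% and ACGTG in 16.6% of them. A match is only a description of the letters.

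Cd274 had 16.7, 8.94 and 10.4 CPM in normoxia, 22.0, 25.2 and 19.2 CPM at day 28 and 39.5, 28.4 and 30.2 CPM at day 56. The 3 groups did not overlap: every day 28 library lay above every normoxia library, and every day 56 library above every day 28 library. The log2 fold change against normoxia was 0.88 ± 0.25 at day 28 (SE; adjusted p = 0.0937, edgeR, not called). It was 1.45 ± 0.25 at day 56 (SE; adjusted p = 0.0164, edgeR). The day 28 value was 1.23 without normoxia replicate 1, the highest of its group (adjusted p = 0.00165, edgeR), and 0.28 with the intron share of the libraries as a covariate (adjusted p = 1.0, edgeR). Between day 56 and day 28 the difference was 0.56 ± 0.25 on the log2 scale (SE; adjusted p = 0.258, edgeR). That last difference turned to -0.13 without scaling factors.

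Pdcd1lg2 encodes PD-L2, whose expression is largely limited to dendritic cells, macrophages and B cell subsets. It follows Cd274 on chromosome 1, with 24257 bases between them, at chr1:247562201-247627193 (ENSRNOG00000016136). Its RefSeq start region, shown as the neighbour of Cd274, covers GRCr8 chr1:236572247-236572496 on the plus strand and also holds a GCGTG in capitals, 165 bases before the start:
Pdcd1lg2: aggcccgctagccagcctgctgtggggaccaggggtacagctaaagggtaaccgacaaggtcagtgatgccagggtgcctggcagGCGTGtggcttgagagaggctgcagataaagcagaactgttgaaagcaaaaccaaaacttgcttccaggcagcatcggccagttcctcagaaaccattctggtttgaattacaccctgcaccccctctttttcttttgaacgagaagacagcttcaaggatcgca
Pdcd1lg2 had 2.12, 3.05 and 2.14 CPM in normoxia, 2.26, 1.78 and 2.43 CPM at day 28 and 1.79, 1.51 and 1.41 CPM at day 56. The day 28 libraries overlapped normoxia, and the day 56 libraries lay below it. Neither difference passed the test: the log2 fold change was -0.18 ± 0.27 at day 28 (SE; adjusted p = 0.654, edgeR) and -0.64 ± 0.27 at day 56 (SE; adjusted p = 0.149, edgeR). The day 28 value of Pdcd1lg2 was 0.80 without scaling factors, 0.18 with exon plus intron reads and 0.012 without normoxia replicate 2, so its sign at day 28 is not settled.

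The ratio of Cd274 to Pdcd1lg2 exon reads within a library needs no scaling between libraries. This ratio and those of the other pairs were chosen with the values known and carry no test. It was 7.84, 2.93 and 4.85 in normoxia, 9.72, 14.2 and 7.89 at day 28 and 22.0, 18.8 and 21.4 at day 56. The groups did not overlap, although day 28 replicate 3 lay just above normoxia replicate 1.

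Pdcd1, the gene of PD-1 itself (chr9:101307763-101319845, ENSRNOG00000049797), had 0 exon reads and 0 exon plus intron reads in all 9 libraries. A count of 0 allows up to 3 reads, which is 0.0450 CPM over the normoxia libraries, 0.0277 CPM over the day 28 libraries and 0.0373 CPM over the day 56 libraries. This limit covers counting error only. Of the 22077 genes, 18.0% had no exon or intron read in any library, but of the 11538 genes spanning at least as many bases as Pdcd1 only 4.72% had none. Whether the mapping or the gene model kept its reads from being counted was not tested. The receptor side of the PD-1 axis is therefore not described further.

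Cd80 and Cd86 are the B7 ligands of CD28 and CTLA-4, carried by monocytes, dendritic cells and activated B cells. They lie on chromosome 11, Cd80 at chr11:64827634-64855353 (ENSRNOG00000001527) and Cd86 at chr11:67082192-67118795 (ENSRNOG00000038835). Cd86 had 9.25, 14.5 and 16.6 CPM in normoxia, 7.84, 5.28 and 5.18 CPM at day 28 and 4.33, 5.63 and 4.62 CPM at day 56. On this scale every library of both SuHx days lay below every normoxia library. In RPKM, day 28 replicate 1 lay above all normoxia libraries at 4.82, against 3.98, 4.65 and 4.59 in normoxia. The log2 fold change was -1.14 ± 0.27 at day 28 (SE; adjusted p = 0.0796, edgeR, not called) and -1.47 ± 0.27 at day 56 (SE; adjusted p = 0.0198, edgeR). Without scaling factors the day 28 value was -0.05. The call at day 56 was lost with the intron share of the libraries as a covariate (adjusted p = 0.0913, edgeR). The start region of Cd86, shown as that of the called B7 ligand, covers GRCr8 chr11:77669031-77669280 on the plus strand and holds none of the 5 motifs:
Cd86: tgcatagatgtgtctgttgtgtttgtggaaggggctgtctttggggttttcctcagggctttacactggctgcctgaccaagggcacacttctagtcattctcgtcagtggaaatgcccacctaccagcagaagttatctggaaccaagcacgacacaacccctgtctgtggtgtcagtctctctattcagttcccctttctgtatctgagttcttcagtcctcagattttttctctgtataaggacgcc

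Cd80 took another course. It had 8.45, 2.76 and 5.32 CPM in normoxia, 11.8, 21.6 and 8.16 CPM at day 28 and 4.03, 4.24 and 5.26 CPM at day 56. Day 28 replicate 2 was highest, and day 28 replicate 3 fell just below normoxia replicate 1. The log2 fold change was 1.33 ± 0.44 at day 28 (SE; adjusted p = 0.111, edgeR) and -0.29 ± 0.44 at day 56 (SE; adjusted p = 0.687, edgeR), neither called. The day 28 value was 0.49 with the intron share and 0.75 with the log2 globin share as a covariate, and 0.86 without day 28 replicate 2. Every day 56 library lay below every day 28 library, with a log2 difference of -1.62 ± 0.44 (SE; adjusted p = 0.103, edgeR, not called). DESeq2 gave that difference an adjusted p of 0.00883, and edgeR without normoxia replicate 1 one of 0.0423. The day 56 value changed sign, to 0.20, without normoxia replicate 1, which held the most Cd80 of its group.

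The Cd80 to Cd86 ratio of exon reads was 0.914, 0.190 and 0.320 in normoxia, 1.51, 4.09 and 1.57 at day 28 and 0.931, 0.754 and 1.14 at day 56. All 3 day 28 libraries lay above the other libraries and held more reads of Cd80 than of Cd86. In normoxia all 3 libraries held fewer.

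**Figure D3:**
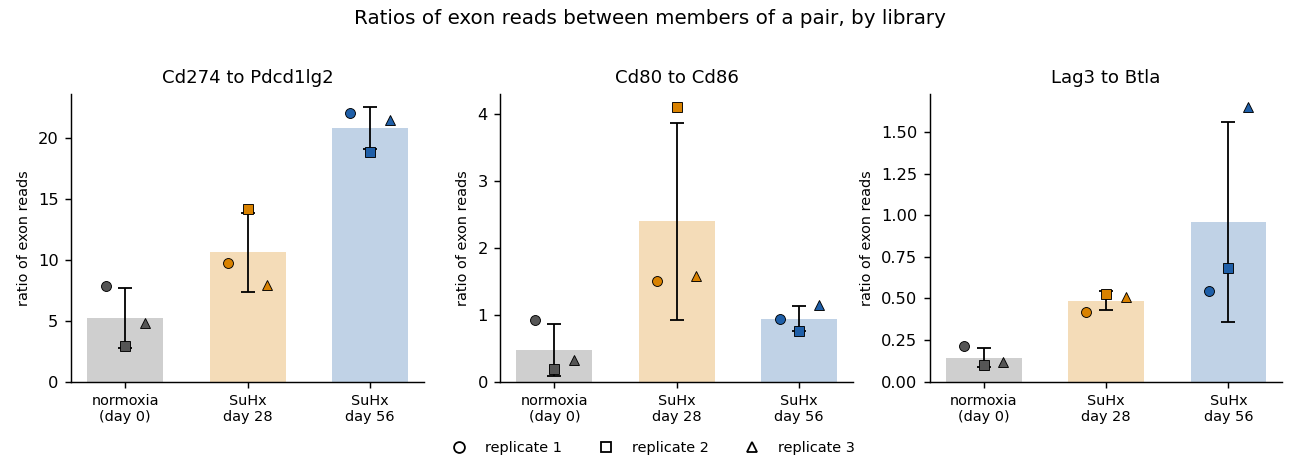
Ratio of exon reads (y axis) of Cd274 to Pdcd1lg2, Cd80 to Cd86 and Lag3 to Btla in normoxia (day 0), SuHx day 28 and SuHx day 56; points are libraries, and bars and whiskers are the mean ± SD of 3 libraries. The mean Cd80 to Cd86 ratio was 0.475 in normoxia, 2.39 at day 28 and 0.941 at day 56, and the means of the other ratios were higher at each later day.

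Among the receptors, Lag3 encodes an inhibitory receptor of activated T cells and NK cells that binds MHC class II. It lies at chr4:157425643-157433467 (ENSRNOG00000021334). Lag3 had 19.1, 11.9 and 10.1 CPM in normoxia, 22.0, 24.9 and 21.4 CPM at day 28 and 29.99, 29.1 and 37.5 CPM at day 56. As with Cd274, the groups did not overlap: day 28 lay above normoxia and day 56 above day 28. The log2 fold change was 0.73 ± 0.24 at day 28 (SE; adjusted p = 0.110, edgeR, not called) and 1.23 ± 0.24 at day 56 (SE; adjusted p = 0.0223, edgeR). The day 56 call was lost with the intron share as a covariate (adjusted p = 0.0764) and when only day 56 and normoxia were fitted (adjusted p = 0.0563, both edgeR). Between day 56 and day 28 the log2 difference was 0.50 ± 0.23 (SE; adjusted p = 0.293, edgeR), and -0.19 without scaling factors.

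Btla encodes an inhibitory receptor of B cells and T cells that binds HVEM (Tnfrsf14). It lies at chr11:60524916-60547201 (ENSRNOG00000030246). Btla had 89.9, 116 and 83.7 CPM in normoxia, 52.3, 47.1 and 42.1 CPM at day 28 and 55.0, 42.6 and 22.8 CPM at day 56. In CPM all SuHx libraries lay below all normoxia libraries, and the SuHx days overlapped each other. Without scaling factors the day 28 log2 fold change was -0.04. The log2 fold change was -1.04 ± 0.29 at day 28 (SE; adjusted p = 0.0927, edgeR, not called) and -1.27 ± 0.29 at day 56 (SE; adjusted p = 0.0362, edgeR). The day 56 call was also lost when only day 56 and normoxia were fitted (adjusted p = 0.0898), with the intron share as a covariate (adjusted p = 0.0826) and with the log2 globin share as one (adjusted p = 0.0517, edgeR throughout). The start region of Btla, shown as that of the called receptor listed by RefSeq, covers GRCr8 chr11:69093225-69093474 on the minus strand and holds none of the 5 motifs:
Btla: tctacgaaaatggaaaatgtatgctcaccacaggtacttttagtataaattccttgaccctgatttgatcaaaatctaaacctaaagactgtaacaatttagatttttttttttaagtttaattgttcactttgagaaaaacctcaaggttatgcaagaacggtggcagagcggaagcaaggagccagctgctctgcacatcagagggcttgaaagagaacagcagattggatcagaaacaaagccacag

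Lag3 and Btla, both inhibitory receptors, thus stood on opposite sides. The Lag3 to Btla ratio of exon reads was 0.212, 0.102 and 0.120 in normoxia, 0.420, 0.528 and 0.508 at day 28 and 0.545, 0.683 and 1.65 at day 56. In day 56 replicate 3, Lag3 reads outnumbered Btla reads.

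Havcr2 encodes TIM-3, an inhibitory receptor of T cells that monocytes and dendritic cells carry as well. It lies at chr10:31561894-31588943 (ENSRNOG00000031443) and was the member with the largest fitted change at day 28. It had 6, 9 and 15 exon reads in normoxia, 95, 127 and 52 at day 28 and 35, 38 and 20 at day 56. In CPM these were 0.250, 0.331 and 0.973 in normoxia, 2.53, 3.22 and 1.66 at day 28 and 1.31, 1.60 and 0.670 at day 56. The day 28 libraries lay above all others, and day 56 replicate 3 fell within the normoxia range. The log2 fold change was 2.33 ± 0.55 at day 28 (SE; adjusted p = 0.0796) and 1.27 ± 0.56 at day 56 (SE; adjusted p = 0.157, both edgeR), neither called. DESeq2 called the day 28 difference (adjusted p = 0.00137). Without normoxia replicate 3, the highest of its group, the values were 3.07 at day 28 and 2.01 at day 56, neither called.

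Tigit encodes a receptor of T cells and NK cells that competes with the activating receptor CD226 for their shared ligands. It lies at chr11:61970975-61987760 (ENSRNOG00000056574). It had 15, 13 and 11 exon reads in normoxia, 42, 31 and 13 at day 28 and 33, 44 and 57 at day 56, or 0.625, 0.478 and 0.714 CPM in normoxia, 1.12, 0.787 and 0.416 CPM at day 28 and 1.23, 1.85 and 1.91 CPM at day 56. The day 56 libraries lay above all others, while day 28 overlapped normoxia. Its log2 fold change was 0.37 ± 0.42 at day 28 (SE; adjusted p = 0.555, edgeR) and 1.47 ± 0.42 at day 56 (SE; adjusted p = 0.0611, edgeR), neither called. Only 49.4% of its exon reads mapped uniquely, so its level is uncertain; the other members with reads had 99.2% or more. Its uniquely mapped reads were 10, 7 and 5 in normoxia, 16, 17 and 7 at day 28 and 16, 19 and 31 at day 56, and with these the log2 fold change was 0.12 at day 28 and 1.28 at day 56 (adjusted p = 0.861 and 0.0810, edgeR). The day 28 value was 0.046 without day 28 replicate 1 and turned to -0.27 with the intron share and -0.71 with the log2 globin share as a covariate. With exon plus intron reads, the day 56 log2 fold change was 2.17 and was called (adjusted p = 0.0163, edgeR).

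Levels of cell type markers moved beside the members. At day 28 all 8 tested neutrophil markers had a positive log2 fold change (median 1.02), and all 7 platelet markers (median -1.74) and all 6 erythroid markers (median -2.98) a negative one, with none called. The 7 platelet markers summed to 660 to 3169 CPM in normoxia, 514 to 819 CPM at day 28 and 1846 to 3739 CPM at day 56. At day 56 the medians were 0.40 for neutrophil, 0.11 for platelet and -0.60 for erythroid markers, with 1 neutrophil marker called higher. What part these cells have in the members' values was not tested. The summed CPM of the 12 monocyte markers was 2728, 2169 and 4600 in normoxia, 4664, 11459 and 3586 at day 28 and 1819, 2885 and 2052 at day 56. Over the 9 libraries Lyz2 held 813660 exon reads and the next marker, Csf1r, 123780, so this sum mostly follows Lyz2. All 12 monocyte markers had a positive log2 fold change at day 28 (median 1.37) and 5 of 12 at day 56 (median -0.18), and none was called. Per 1000 CPM of these markers, Cd80 had 3.10, 1.27 and 1.16 CPM in normoxia, 2.53, 1.89 and 2.27 CPM at day 28 and 2.21, 1.47 and 2.56 CPM at day 56. On that scale the 3 groups of Cd80 overlapped, and day 28 replicate 2, highest in Cd80 and in monocyte markers, was the lowest of its group. What part monocyte content has in the Cd80 values was not tested.

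On the monocyte scale Cd274 overlapped normoxia at day 28, and Cd86 lay below it at both SuHx days. Per 1000 CPM of monocyte markers, Cd274 had 6.11, 4.12 and 2.26 CPM in normoxia, 4.71, 2.20 and 5.35 CPM at day 28 and 21.7, 9.86 and 14.7 CPM at day 56. The day 56 libraries lay above all others. Cd86 had 3.39, 6.69 and 3.61 CPM on this scale in normoxia, 1.68, 0.461 and 1.44 CPM at day 28 and 2.38, 1.95 and 2.25 CPM at day 56, so both SuHx days lay below normoxia. Havcr2 averaged 0.152 ± 0.060 CPM per 1000 in normoxia, 0.429 ± 0.134 at day 28 and 0.533 ± 0.196 at day 56 (SD, n = 3 each), and Pdcd1lg2 averaged 0.884 ± 0.480, 0.439 ± 0.264 and 0.732 ± 0.233 in the same order. B cells carry the B7 ligands too: per 1000 CPM of B cell markers, Cd86 averaged 10.3 ± 3.50 in normoxia, 6.89 ± 1.40 at day 28 and 6.27 ± 1.78 at day 56 (SD, n = 3 each), where the SuHx libraries overlapped normoxia. On the same scale Cd80 averaged 4.55 ± 2.90 in normoxia, 15.4 ± 6.58 at day 28 and 6.04 ± 2.79 at day 56 (SD, n = 3 each). There the lowest day 28 library (10.2) lay above the highest normoxia library (7.42), and day 56 overlapped normoxia. Dendritic cells, which carry both ligands, had 9 markers whose summed CPM was 477, 272 and 286 in normoxia, 404, 370.5 and 411 at day 28 and 469, 450.4 and 400.5 at day 56, with overlapping groups and none of the 8 tested called. Over the 9 libraries Ccr7 held 47890 exon reads, Irf8 46808 and the next marker, Clec10a, 3197. This sum therefore mostly follows Ccr7 and Irf8 and is a weak measure of dendritic cell content. So whether Cd86, or Cd80 at day 28, separated from normoxia depended on the marker list it was set against.

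The 12 T cell markers summed to 1713, 1899 and 1755 CPM in normoxia, 1670, 1272 and 2007 CPM at day 28 and 1753, 1747 and 2208 CPM at day 56, and the groups overlapped. Per 1000 CPM of them, Lag3 had 11.1, 6.24 and 5.73 CPM in normoxia, 13.2, 19.6 and 10.6 CPM at day 28 and 17.1, 16.7 and 17.0 CPM at day 56. The day 56 libraries were nearly equal on this scale and lay above normoxia. NK cells carry Lag3 as well. Their 8 markers summed to 416, 480.2 and 642 CPM in normoxia, 282, 537 and 460 CPM at day 28 and 640.2, 679.5 and 789 CPM at day 56. Day 28 overlapped normoxia, and day 56 replicate 1 fell just below normoxia replicate 3. Of the 7 tested markers, 2 had a positive log2 fold change at day 28 (median -0.37) and 6 at day 56 (median 0.61), and none was called. Of the 8 markers, Klrb1 was at 0 in 3 libraries. Whether the share of NK cells bears on Lag3 was not tested.

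Btla on the T cell scale had 52.5, 61.3 and 47.7 CPM in normoxia, 31.3, 37.1 and 21.0 CPM at day 28 and 31.4, 24.4 and 10.3 CPM at day 56, without overlap between normoxia and either SuHx day. The 8 B cell markers summed to 1139, 1707 and 1157 CPM in normoxia, 1162, 949.7 and 620.5 CPM at day 28 and 944, 924 and 568 CPM at day 56, and 1 of the 8 was called lower at day 56. Per 1000 CPM of B cell markers, Btla had 78.9, 68.2 and 72.3 CPM in normoxia, 45.0, 49.6 and 67.8 CPM at day 28 and 58.3, 46.1 and 40.1 CPM at day 56. On that scale every SuHx library lay below every normoxia library, with day 28 replicate 3 at 67.8 CPM just under normoxia replicate 2 at 68.2 CPM. What part B cell content has in the Btla values was not tested. Tigit per 1000 CPM of T cell markers averaged 0.341 ± 0.080 in normoxia, 0.498 ± 0.253 at day 28 and 0.875 ± 0.178 at day 56 (SD, n = 3 each).

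**Figure D4:**
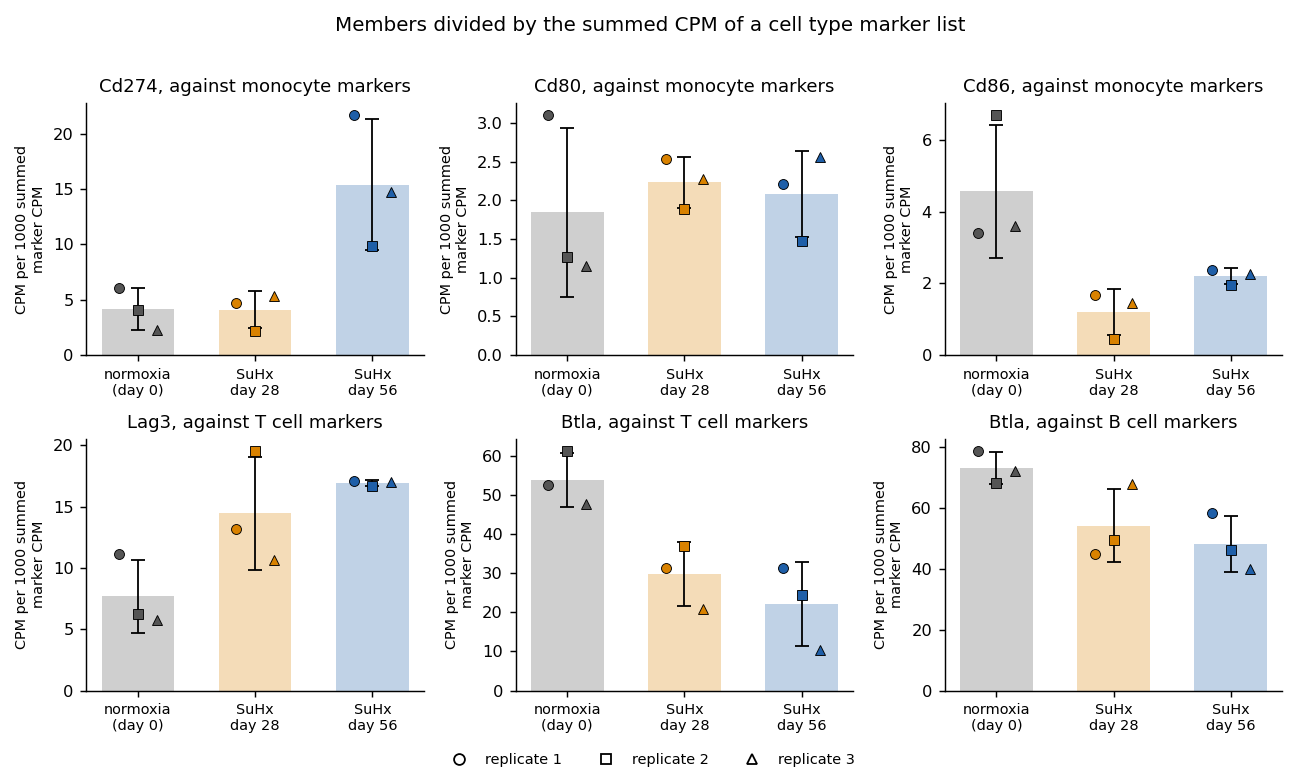
CPM of a member per 1000 summed CPM of a marker list (y axis) in normoxia (day 0), SuHx day 28 and SuHx day 56; points are libraries, and bars and whiskers are the mean ± SD of 3 libraries. Cd80 per monocyte marker overlapped between the groups, Cd274 per monocyte marker stood apart at day 56, and Btla lay lower at both SuHx days on the T cell and on the B cell scale.

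Intron reads, which come from unspliced RNA or from DNA, made up a changing share of some members. For Cd274 they were 36.8%, 29.8% and 22.7% of gene reads in normoxia, 53.4%, 45.4% and 36.0% at day 28 and 56.9%, 53.5% and 48.9% at day 56. The day 56 libraries lay above all normoxia libraries, and day 28 replicate 3 fell just below normoxia replicate 1. Over the tested genes the median share was also higher at both SuHx days, with 18.8% ± 5.72 in normoxia, 26.7% ± 3.96 at day 28 and 26.7% ± 2.74 at day 56 (SD, n = 3 each). Tigit stood at 56.5% ± 7.36 at day 56 against 21.3% ± 5.18 in normoxia, and Havcr2 at 57.2% ± 3.09 at day 56 against 31.8% ± 11.8 in normoxia (SD, n = 3 each). Both shares rest on few reads. Lag3 kept a low share, with 11.2% ± 4.25 in normoxia, 13.2% ± 1.39 at day 28 and 10.4% ± 1.07 at day 56 (SD, n = 3 each). For Pdcd1lg2 the mean share was 25.2% in normoxia and 45.3% at day 56, and for Cd86 13.5% and 26.5%. For Btla it was 29.7% and 37.8%, and for Cd80 25.5% and 24.7%, in the same order. The mean share was thus also higher in Cd86 and Btla, which were called lower, though their day 56 libraries overlapped normoxia.

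**Figure D5:**
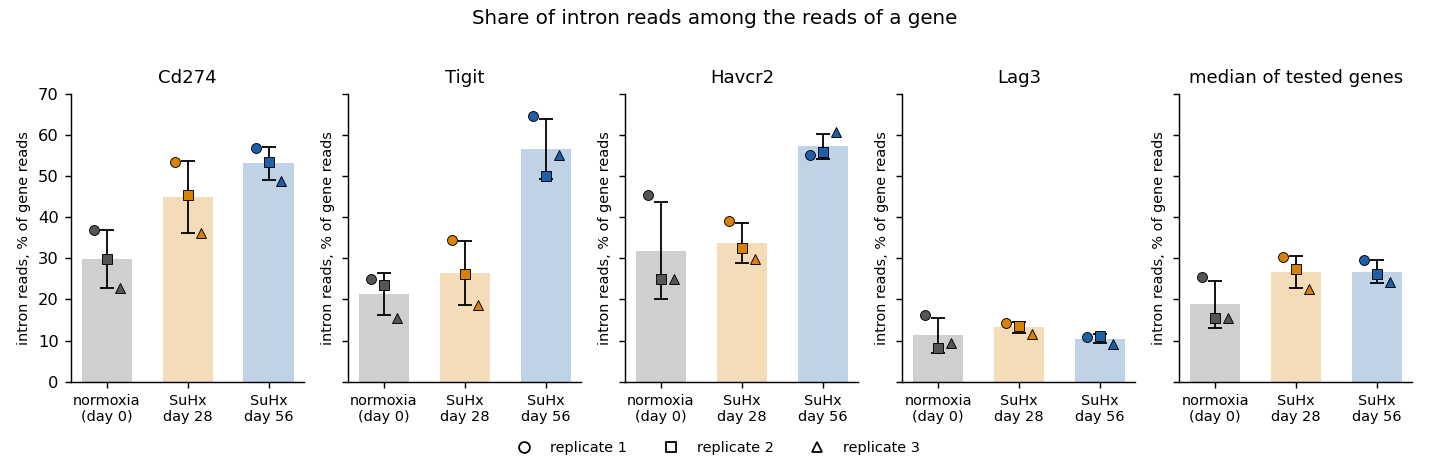
Intron reads as a percentage of the reads in a gene (y axis) for Cd274, Tigit, Havcr2, Lag3 and the median of the tested genes, in normoxia (day 0), SuHx day 28 and SuHx day 56; points are libraries, and bars and whiskers are the mean ± SD of 3 libraries. At day 56 the mean share was 53.1% for Cd274, 56.5% for Tigit and 57.2% for Havcr2, against 10.4% for Lag3.

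Other genes of the pathway were taken from 4 lists. Of 26 other co-inhibitory receptors and their ligands, 20 were tested, and 0 were called in any of the 3 comparisons. Of all genes tested, 0.129% were called at day 28, 7.12% at day 56 and 0.546% between the SuHx days. Their median log2 fold change was 0.13 at day 28 and 0.17 at day 56. Among them Ctla4, the inhibitory receptor for Cd80 and Cd86, averaged 33.3 ± 21.2 CPM in normoxia, 26.1 ± 5.98 CPM at day 28 and 45.0 ± 8.01 CPM at day 56 (SD, n = 3 each). Tnfrsf14, the ligand of Btla, averaged 298 ± 86.6 CPM in normoxia, 325 ± 72.0 CPM at day 28 and 406 ± 40.9 CPM at day 56 (SD, n = 3 each). These were named, after their values were seen, as the binding partners of members.

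Of 20 costimulatory receptors and ligands, 15 were tested, with 0 called at day 28, beside 0.129% of all genes. At day 56, 2 were called higher and 1 lower, beside 3.42% and 3.7% of all genes. The median log2 fold change was -0.46 at day 28 and -0.20 at day 56. Cd28, the activating receptor for Cd80 and Cd86, had 75.3, 55.6 and 62.1 CPM at day 56 against 32.2, 26.9 and 24.7 CPM in normoxia. Its log2 rise was 1.20 ± 0.23 (SE; edgeR adjusted p = 0.0208), so the receptor Cd28 and the ligand Cd86 changed in opposite directions. Tnfsf9, the 4-1BB ligand, had 6.68, 6.01 and 10.2 CPM at day 56 against 0.833, 1.07 and 1.23 CPM in normoxia, or a log2 fold change of 2.88 ± 0.41 (SE; edgeR adjusted p = 0.00832). Cd48, an adhesion ligand of the receptors CD2 and CD244, fell by 1.20 ± 0.28 in log2 at day 56 (SE; edgeR adjusted p = 0.0380). Normoxia replicate 1, at 127 CPM of Cd48, stood nearer to the day 56 libraries (112, 93.8 and 94.1 CPM) than the other normoxia libraries did, at 269 and 293 CPM.

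Of 19 genes of checkpoint signalling and of transcription factors in inhibited T cells, all were tested. At day 28, 0 were called, beside 0.129% of all genes. At day 56, 3 were called higher and 0 lower, beside 3.42% and 3.7% of all genes. The median log2 fold change was 0.25 at day 28 and 0.70 at day 56. Prdm1 (BLIMP-1), a transcriptional repressor that acts in effector lymphocytes and plasma cells, had 39.2, 34.3 and 49.7 CPM at day 56 against 10.5, 6.11 and 8.44 CPM in normoxia. Its log2 fold change was 2.30 ± 0.28 (SE; adjusted p = 0.00473, edgeR). Tbx21 (T-bet), the factor of type 1 T cells and NK cells, rose by 1.31 ± 0.31 in log2 (SE; adjusted p = 0.0407), and Nr4a1, an early factor downstream of the T cell receptor, by 1.92 ± 0.46 (SE; adjusted p = 0.0407, both edgeR).

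Of 16 regulators known to induce Cd274, 15 were tested. At day 28, 1 was called higher and 0 lower, beside 0.129% of all genes called in either direction. At day 56, 3 were called higher and 1 lower, beside 3.42% and 3.7% of all genes. The median log2 fold change was 0.45 at day 28 and 0.40 at day 56. Jun, an AP-1 subunit, had 13.8, 37.4 and 29.7 CPM in normoxia, 154, 205 and 128 CPM at day 28 and 311, 362 and 376 CPM at day 56. Fitted against normoxia, Jun rose by 2.59 ± 0.35 in log2 at day 28 (SE; adjusted p = 0.0450) and by 3.70 ± 0.37 at day 56 (SE; adjusted p = 0.00161, both edgeR). Rela, the p65 subunit of NF-kB, rose at day 56 by 0.85 ± 0.17 in log2 (SE; adjusted p = 0.0227), and Myc by 1.30 ± 0.27 (SE; adjusted p = 0.0257, both edgeR). Irf9, which carries type I interferon signals with STAT factors, fell by 0.53 ± 0.13 (SE; adjusted p = 0.0447, edgeR). At day 56, Jun, Prdm1 and Tnfsf9 were called in each of the 9 fits with 1 library left out. The calls of Cd28, Cd48, Tbx21, Nr4a1, Rela, Myc and Irf9 were lost without normoxia replicate 2 or 3 or any 1 of the day 56 libraries, with the intron share as a covariate, and without scaling factors, among other settings. Of the 23 alternatives in all, the call was lost in 14 for Cd48 and Irf9, 11 for Tbx21, 9 for Nr4a1, 8 for Rela and 7 for Cd28 and Myc. Among single libraries, Cd48 and Irf9 also lost theirs without any 1 of the day 28 libraries, Nr4a1 without day 28 replicate 1 and Tbx21 without day 28 replicate 3. The day 28 call of Jun was lost in 11 of the 23 alternatives, and of the 9 that leave out a library it held without normoxia replicate 1 or day 28 replicate 3.

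The genes whose levels over the 9 libraries were most like those of a member were listed by Pearson's r of log2(CPM + 1) among 11114 genes with a mean of at least 1 CPM. The points share their library, depth, globin share and intron share, and the differences between groups were left in, so r is a description. For Cd274 these were Gcc1 (r = 0.989), Tollip (0.977) and Eaf1 (0.975), for Lag3 Spata2L, Cltb and Nprl2 (0.983, 0.982 and 0.982), and for Cd86 Ccdc69, Zfp110 and Zfp667 (0.975, 0.971 and 0.964). For Cd80 they were Clec4a1 (0.982), Prg4 (0.979) and Mlkl (0.977), and Clec4a1 is in the monocyte marker list above. For Btla they were Brca1 (0.993), Pou2af1 (0.955) and Pigr (0.952). For Havcr2 they were Zfp703, Cebpg and RGD621098 (0.952, 0.943 and 0.941), for Tigit Pusl1, Map2k2 and Zfpl1 (0.979, 0.972 and 0.957), and for Pdcd1lg2 Ift80, Ltv1 and Spg11 (0.951, 0.946 and 0.943).

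Among the members themselves, Cd274 and Lag3 went together over the 9 libraries (r = 0.945), and Cd86 ran against both (r = -0.931 with Cd274 and -0.943 with Lag3). Btla and Cd86 had r = 0.813. The differences between the groups were left in these r values, so they in part repeat the fold changes given above. Cd80 was closest to Havcr2 (r = 0.667), and both ran against the globin share of the libraries (r = -0.836 for Cd80 and -0.807 for Havcr2). For Cd274, Lag3, Btla and Cd86, r with the globin share lay between -0.340 and 0.391. With the intron share, r was 0.617 for Cd274, 0.554 for Lag3, -0.363 for Btla, -0.581 for Cd86 and 0.721 for Havcr2 and for Cd80. What part these library properties have in the members' values was not tested.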

How the data were processed

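RNA of PBMC was extracted with Trizol and PureLink columns with DNase and made into Illumina libraries, per the labels' protocols. The submitters' processing notes name rn6 and FastQC; no aligner is named in the sources used here. The authors deposited 1 table of exon read counts, uniquely mapped exon reads (formally estimated counts in the columns of replicate 1, because of a broken line; no rounding was needed on intact lines), exon plus intron counts and RPKM for each Ensembl gene, per the file headers. Exon counts include reads that map to several places. Of 22085 lines, 8 were broken and left out, and 90 further columns of per-sample values were not used.

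Exon counts of all 9 libraries were fitted with edgeR 4.0.16 in R 4.3.3 (TMM factors, default filterByExpr, robust quasi-likelihood F-test, 1 mean per group). Benjamini-Hochberg adjustment ran over 12447 genes at 0.05; common biological coefficient of variation 0.280. SE is the log2 fold change divided by the square root of F. The limit given for Pdcd1 covers counting error only, while SE also reflects the spread between libraries. All replicate pairs differed beyond sampling noise. The 23 alternatives are scaling (RLE, upper-quartile, none), DESeq2 1.42.0, filters, read types, globin genes left out, covariates, a replicate block, fits of 2 groups, a fit without robust estimation, and each library left out. The members, the 4 lists, the 8 marker lists, the tests and the alternatives were chosen with earlier results of these data known. Named genes were the 9 members, list genes called in any comparison (at most 8 per list) and the 3 most alike genes per member. Of 81 list genes, 69 were tested. Promoter sequences are from RefSeq (GRCr8), matched by symbol for 7 of the 9 members.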

Additional observations from a re-analysis of the deposited data

Results flagged for a closer look

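Of the 69 list genes tested, 2 differed between the SuHx days by the direct test of day 56 against day 28, beside 0.546% of all genes. Tnfsf9, the 4-1BB ligand, had 6.68, 6.01 and 10.2 CPM at day 56 against 1.60, 2.28 and 0.800 CPM at day 28, a log2 difference of 2.28 ± 0.39 (SE; adjusted p = 0.0417, edgeR quasi-likelihood F-test). Prdm1 had 39.2, 34.3 and 49.7 CPM at day 56 against 12.0, 16.9 and 9.72 CPM at day 28, a log2 difference of 1.67 ± 0.27 (SE; adjusted p = 0.0330, edgeR). Both were higher in 3 of 3 day 56 libraries. The call of Tnfsf9 held in 2 and that of Prdm1 in 3 of the 9 fits with 1 library left out, namely without normoxia replicate 1 or day 28 replicate 3 for both and without normoxia replicate 2 for Prdm1. Over all 23 alternatives the call was lost in 10 for Tnfsf9 and 8 for Prdm1.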

How the results depend on the processing

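The count of members called at day 56 (4) was 0 without scaling factors, 2 with only the 2 groups, 1 with the intron share as a covariate and 0 to 5 with 1 library left out. At day 28 (0) it was 5 without factors, 6 with DESeq2 and 0 to 6 with 1 library left out, and between day 56 and day 28 (0) it was 3, 1 (DESeq2), 1 (only the 2 groups) and 0 to 1. Without factors the median of all genes shifted by 0.98 at day 28, 0.29 at day 56 and -0.68 between the days on the log2 scale. Over all genes, the 16 calls at day 28 became 8 (RLE), 79 (upper-quartile), 7130 (no factors), 1659 (DESeq2), 151 (no filter), 72 (unique reads), 223 (replicate block), 2 (only 2 groups), 1 (intron share), 1 (globin share) and 2 to 5732 (1 library left out). The 886 at day 56 became 145 (no factors), 2346 (DESeq2), 540 (replicate block), 348 (only 2 groups), 138 (intron share), 503 (globin share) and 85 to 5453 (1 library left out). The 68 between the days became 2600 (no factors), 1062 (DESeq2), 186 (replicate block), 590 (only 2 groups), 0 (globin share) and 3 to 1002 (1 library left out). With the replicate block the members' counts stayed 0, 4 and 0. Same-numbered libraries correlated between -0.185 and 0.254 in their deviations from the group mean. That shows no pairing by number, but with 3 libraries per group it cannot exclude one. Signs turned for Pdcd1lg2 at day 28 (0.80 without factors, 0.18 with exon plus intron reads, -0.28 to 0.012 with 1 library left out), Tigit at day 28 (-0.27 with the intron share, -0.71 with the globin share) and Cd80 at day 56 (-0.62 to 0.20 with 1 library left out). Between the days they turned without factors for Cd274 (-0.13) and Lag3 (-0.19), and with the globin share for Btla (0.0018; -0.53 to 0.049 with 1 library left out) and Cd86 (0.013). No other sign of a member changed in the 23 alternatives. The cause of these changes was not tested. Few reads limit Havcr2 and Tigit, whose normoxia libraries held 6 to 15 exon reads.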
